A study of Mus with 2 samples.

Results

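Interferon-stimulated genes were followed across the cell types of interscapular brown adipose tissue (iBAT). The list held 46 genes, taken as named in the analysis plan, and 44 of them were found by symbol among the 32285 genes of the files. *Mx1* and *Mx2* were not analysed here. The 44 members fell into 5 groups by role: 9 type I genes (the *Ifit* and *Oas* families and *Isg15*), 14 GTPase genes (the *Gbp* and *Irg* families), 4 transcription factors, 4 genes of antigen processing and 13 other effectors. The type I group is named for type I interferon, but interferon-γ also raises several of its genes, and the GTPase genes respond to both.

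Interferons are secreted proteins that bind receptors on neighbouring cells and act through JAK kinases and STAT factors. Type I interferon mainly acts through a complex that holds STAT2 and IRF9, whereas interferon-γ does not need these subunits and raises *Irf1*, whose product in turn raises *Gbp* and *Irg* genes. The products of these genes block viral RNA, attack the vacuoles of intracellular microbes and load peptides for T cells. Brown adipocytes carry interferon receptors, as do most cells.

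Droplet-based single-nucleus RNA sequencing of frozen iBAT was run on 1 library from *Wtap* flox/flox mice and on 1 that is labelled *Wtap*-BKO. Mice of both groups were C57BL/6, 8 weeks old and fed normal chow, and both carried *Wtap* alleles with exon 4 between loxP sites. The *Wtap*-BKO mice carried *Ucp1*-iCre in addition, so that Cre is made in cells that express *Ucp1*, which are brown adipocytes. Each library pooled 4 mice that cannot be separated, so no replicate, no test and no p-value could be given, and all intervals below are 95% intervals that cover counting error only. Differences between the libraries are therefore differences between these 2 pools, and genotype, pool and library preparation cannot be told apart.

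From *Wtap* flox/flox, 9494 nuclei with 10770604 unique molecular identifiers (UMIs, counted RNA molecules) were obtained, and from the library labelled *Wtap*-BKO 8772 nuclei with 13945673 UMIs. The medians were 954 and 1306 UMIs per nucleus. Mitochondrially encoded genes took 7.598% and 11.7% of the UMIs. The libraries shared 20 barcodes, 0.211% and 0.228% of their nuclei. Levels are given as UMIs per 1000000 UMIs (CPM) of the same nuclei. The targeted gene *Wtap* had 50.4 CPM (interval 45.5 to 55.7) and 48.2 CPM (43.7 to 53.2) in adipocyte-like nuclei, so its mRNA levels in these nuclei did not separate the libraries, although a floxed exon need not change a count taken near the 3′ end.

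Clusters were named from marker genes, and the named ones were joined into 4 lineages. Adipocyte-like nuclei numbered 6772 in the *Wtap* flox/flox library and 5009 in the library labelled *Wtap*-BKO. Vessel nuclei (endothelial-like and pericyte-like) numbered 1590 and 989, fibroblast-like nuclei 274 and 490, and immune nuclei (macrophage-like, T cell-like and B cell-like) 419 and 1922. Immune nuclei thus made up 4.41% of one library and 21.9% of the other. The remaining 439 and 362 nuclei, Schwann-like or unnamed, entered no comparison of lineages.

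Over all nuclei, 13548 UMIs came from the members in *Wtap* flox/flox, or 1258 CPM, whereas 42805 did in the library labelled *Wtap*-BKO, or 3069 CPM. Expressed as a log2 ratio, with *Wtap* flox/flox as the denominator here and below, the difference was 1.29 (1.26 to 1.31). This ratio mixes the level within each cell type with the larger share of immune nuclei, so the lineages were examined apart.

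To examine adipocytes, UMIs were summed over the adipocyte-like nuclei of each library. All 5 groups of members were higher in the library labelled *Wtap*-BKO, and the type I and GTPase groups differed most. The mitochondrial share of UMIs, a sign of RNA quality, was 4.64% and 11.8% in these nuclei, and in nuclei with at most 5% of such UMIs the GTPase log2 ratio was 1.95. The GTPase genes held 2922 UMIs (381 CPM) and 10333 UMIs (1216 CPM), a log2 ratio of 1.67 (1.61 to 1.73). The type I genes held 169 UMIs (22.1 CPM) and 662 UMIs (77.9 CPM), a log2 ratio of 1.82 (1.57 to 2.07). The intervals of these ratios overlapped. Antigen processing genes had a log2 ratio of 1.18 (1.07 to 1.29), transcription factors 0.79 (0.68 to 0.89) and other effectors 0.72 (0.65 to 0.80), and these 3 intervals lay below those of both former groups.

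Of the 44 members, 41 had at least 20 UMIs over both libraries in adipocyte-like nuclei, and 25 of these 41 had a log2 ratio of at least 1, that is, at least a 2-fold higher level. Among all 14218 genes that passed the same filter, 15.0% did. No member had a log2 ratio of -1 or lower, a size that 3.82% of all genes reached. The median log2 ratio was 1.44 for these members and 0.09 for all genes. *Ifit3b*, *Oas1a* and *Oas3* stayed under the filter. A gene of low level passes this filter more easily when it is high in one library, so these counts describe the members that passed and not the list as a whole.

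Among the GTPase genes, *Iigp1*, an immunity-related GTPase that disrupts parasite vacuoles, had the most UMIs in adipocyte-like nuclei. Its level was 80.3 CPM (615 UMIs) in *Wtap* flox/flox and 278 CPM (2359 UMIs) in the library labelled *Wtap*-BKO, and its log2 ratio was 1.79 (1.66 to 1.92). *Gbp6*, a guanylate-binding protein, had 519 UMIs (67.7 CPM) and 2020 UMIs (238 CPM), with a log2 ratio of 1.81 (1.67 to 1.95). Both genes moved to nearly the same extent, and their intervals overlapped almost wholly.

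*Gm4951*, a predicted immunity-related GTPase from the same stretch of chromosome 18 as *Iigp1*, had 165 UMIs (21.5 CPM) and 1195 UMIs (141 CPM). Its log2 ratio of 2.71 (2.47 to 2.95) was the highest of the 5 GTPase genes with the most UMIs. *F830016B08Rik*, another gene of this kind, had 262 UMIs (34.2 CPM) and 1128 UMIs (133 CPM), with a log2 ratio of 1.96 (1.76 to 2.16). *Irgm2*, which belongs to the regulatory branch of the family that guards the cell's own membranes, went from 295 UMIs (38.5 CPM) to 635 UMIs (74.7 CPM), a log2 ratio of 0.96 (0.76 to 1.16). The regulators were thus not uniform. *Irgm1* had the lowest log2 ratio of the 14 GTPase genes at 0.52 (0.25 to 0.79), while *Igtp* had 1.95 (1.58 to 2.33). Without the small cluster described below, *Irgm1* had -0.027 (-0.33 to 0.27), and *Igtp* stayed above that interval.

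The other guanylate-binding proteins spread over a similar range. *Gbp10*, *Gbp2* and *Gbp5*, singled out here after their values were seen, had log2 ratios of 2.19, 2.02 and 1.97, and *Gbp9* and *Gbp4* had 1.63 and 1.58. *Gbp7* and *Gbp3* had 0.91 and 0.74, and their intervals, 0.68 to 1.14 and 0.50 to 0.99, lay below those of the 3 highest. Without the small cluster described below, *Gbp7* had 0.54 (0.29 to 0.80) and *Gbp3* 0.27 (-0.007 to 0.54). In RefSeq for GRCm38 (the assembly also called mm10, named in the processing notes), in which all 46 listed symbols matched 1 entry each, the *Gbp* genes form 2 clusters. *Gbp5*, *Gbp7*, *Gbp3* and *Gbp2* lie on chromosome 3 between positions 142496934 and 142638008, and their log2 ratios ran from 0.74 to 2.02. *Gbp9*, *Gbp4*, *Gbp10* and *Gbp6* lie on chromosome 5 between 105076464 and 105295871, with log2 ratios from 1.58 to 2.19. *Gm4951*, *F830016B08Rik* and *Iigp1* lie in this order on chromosome 18 between 60212004 and 60392634, with log2 ratios from 1.79 to 2.71. Members of these families are near-identical in places, so the counts of single neighbours are uncertain, and the sum over the family may be affected as well.

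The type I genes had few UMIs in adipocyte-like nuclei, so their single values are less precise. *Oasl2*, a relative of the oligoadenylate synthetases, had the most UMIs, with 60 (7.83 CPM) and 264 (31.1 CPM) and a log2 ratio of 1.99 (1.58 to 2.42). *Ifit1*, which binds foreign RNA, had 22 UMIs and 116 UMIs, a log2 ratio of 2.25 (1.58 to 2.98). *Ifit2*, its neighbour on chromosome 19, had 10 UMIs and 68 UMIs, a log2 ratio of 2.62 (1.65 to 3.74). Their intervals were wide and overlapped one another.

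*Ifit3*, from the same cluster, had 36 UMIs and 93 UMIs, with a log2 ratio of 1.22 (0.65 to 1.82). *Oas2*, an oligoadenylate synthetase that activates RNase L, had 32 UMIs and 61 UMIs and the lowest log2 ratio of the type I genes that passed the filter, 0.78 (0.14 to 1.45). Without the small cluster described below, *Oas2* had 0.42 (-0.26 to 1.12). *Isg15*, a ubiquitin-like protein joined to other proteins, had 2 UMIs and 33 UMIs, so its log2 ratio of 3.90 had an interval from 1.93 to 6.9997. *Ifit3b* had 2 and 9 UMIs, *Oas1a* 1 and 4, and *Oas3* 4 and 14, too few for a ratio to be read.

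The transcription factors split. *Irf1*, which interferon-γ raises, had 193 UMIs (25.2 CPM) and 977 UMIs (115 CPM) in adipocyte-like nuclei, a log2 ratio of 2.19 (1.97 to 2.42). *Irf7*, which amplifies type I interferon production, had 54 UMIs and 166 UMIs, a log2 ratio of 1.47 (1.02 to 1.94). *Stat2*, a subunit of the type I interferon complex, had 584 UMIs (76.2 CPM) and 770 UMIs (90.6 CPM), a log2 ratio of only 0.25 (0.09 to 0.41). Without the small cluster described below, its value was 0.08 (-0.08 to 0.25). *Irf9*, the DNA-binding subunit of the same complex, was the one member of the 41 that was lower in the library labelled *Wtap*-BKO, with 317 UMIs (41.4 CPM) and 282 UMIs (33.2 CPM) and a log2 ratio of -0.32 (-0.55 to -0.08).

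Antigen processing genes were all higher. *Tap1*, the peptide transporter of the endoplasmic reticulum, had 447 UMIs (58.3 CPM) and 1349 UMIs (159 CPM), a log2 ratio of 1.44 (1.29 to 1.60). The immunoproteasome subunits *Psmb9* and *Psmb8* had log2 ratios of 1.76 (1.37 to 2.18) and 1.29 (0.90 to 1.69), from 65 and 245 UMIs and from 75 and 203 UMIs, respectively. *Nlrc5*, the transactivator of MHC class I genes, had 398 and 674 UMIs, giving a log2 ratio of 0.61 (0.43 to 0.79), below the intervals of the other 3 genes, and its value was 1.06 when only nuclei with at most 5% mitochondrial UMIs were used.

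Among the other effectors, the gene with the most UMIs differed little. *Rnf213*, a large ubiquitin ligase, had 896 UMIs (117 CPM) and 1128 UMIs (133 CPM), a log2 ratio of 0.18 (0.06 to 0.31), and without the adipocyte-like cluster led by interferon-stimulated genes (described below) the value was -0.089. *Parp9* and *Parp14*, of the ADP-ribosyltransferase family, had log2 ratios of 0.86 (0.68 to 1.05) and 0.89 (0.67 to 1.11), and *Trim30a*, a TRIM-family protein, had 0.81 (0.55 to 1.07). These 3 genes lay close together. *Usp18*, which removes ISG15 from proteins and limits signalling at the type I receptor, stood apart with 40 UMIs (5.22 CPM) and 261 UMIs (30.7 CPM) and a log2 ratio of 2.56 (2.07 to 3.07). *Zbp1*, a sensor of Z-form nucleic acids that was picked after its values were seen, had 14 and 114 UMIs, giving a log2 ratio of 2.88 (2.07 to 3.79). The remaining 7 effectors ranged from *Ifih1*, a sensor of double-stranded RNA, at 0.36 to *Rsad2*, the antiviral protein viperin, at 1.66.

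**Figure D1:**
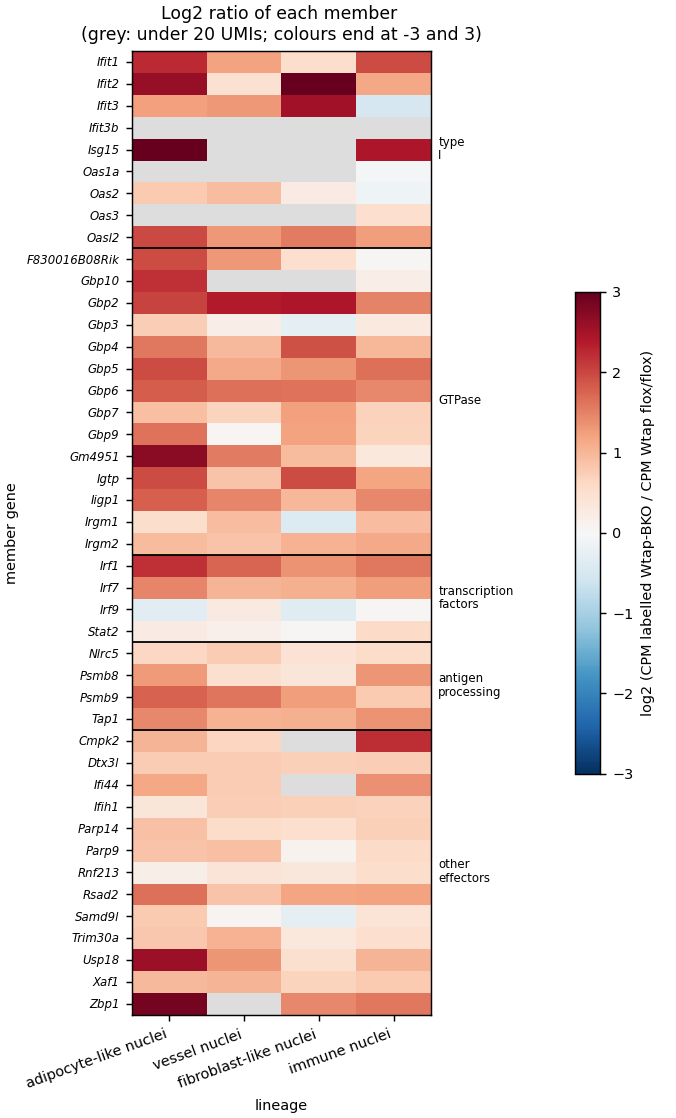
Log2 ratio of the 44 members, with Wtap flox/flox as the denominator and the library labelled Wtap-BKO as the numerator, 1 row per gene by group and 1 column per lineage, with grey where a gene had under 20 UMIs over both libraries. Red fills most of the adipocyte-like column, where 25 of 41 members had a log2 ratio of at least 1, while Stat2, Irf9 and Rnf213 stay pale in every lineage, with log2 ratios from -0.36 to 0.57.

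To see whether the difference was confined to adipocytes, the other lineages were examined in the same way. Members were higher in the library labelled *Wtap*-BKO in all 4 lineages. The members together had 969 and 2318 CPM in adipocyte-like nuclei, a log2 ratio of 1.26 (1.22 to 1.30). Vessel nuclei had 1944 and 3597 CPM, a log2 ratio of 0.89 (0.82 to 0.95). Immune nuclei had 2947 and 5062 CPM, a log2 ratio of 0.78 (0.70 to 0.86), and fibroblast-like nuclei had 2418 and 3908 CPM, a log2 ratio of 0.69 (0.58 to 0.81). Adipocyte-like nuclei thus had the lowest level in both libraries and the largest log2 ratio, and the interval of their ratio did not overlap those of the other 3 lineages. Without the small cluster described below, the adipocyte value was 0.87 (0.83 to 0.91) and overlapped that of vessel nuclei.

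In vessel nuclei, 16 of the 38 members that passed the filter had a log2 ratio of at least 1, beside 12.5% of all genes there, and no member reached -1, beside 2.1% of all genes. With median-of-ratios scaling, the first count was 9. The mitochondrial share of UMIs was 14.7% and 11.3% in these nuclei. The median log2 ratio was 0.91 for these members and 0.31 for all genes, so the typical gene was also higher in the vessel nuclei of the library labelled *Wtap*-BKO. Several lists of markers of other cells moved with the members there. The macrophage markers had 201 and 445 CPM, a log2 ratio of 1.15 (0.95 to 1.34), the dendritic cell markers had a log2 ratio of 1.35 (1.17 to 1.52) and the T cell markers, at 48.3 and 174 CPM, one of 1.85 (1.48 to 2.22). The fibroblast markers had a log2 ratio of 1.22 (1.10 to 1.35). The B cell list had 0.13 (0.03 to 0.22), but it cannot be read as B cells here. It had 1250 CPM in vessel and 1276 CPM in immune nuclei of the *Wtap* flox/flox library. The dendritic cell list, here and below, holds *H2-Ab1*, *H2-Aa*, *Cd74* and *Ciita*, MHC class II pathway genes that may themselves respond to interferon. The lineage's own endothelial and pericyte markers had log2 ratios of 0.71 (0.65 to 0.77) and 0.20 (0.11 to 0.29). The part of other cells in the vessel values was not tested. *Gbp4* had its highest level in vessel nuclei in both libraries, at 153 CPM (295 UMIs) and 301 CPM (340 UMIs), above the intervals of the other lineages. Its log2 ratio there was 0.98 (0.75 to 1.21). *Iigp1* had 282 UMIs (146 CPM) and 454 UMIs (402 CPM), a log2 ratio of 1.46 (1.24 to 1.68), and *Gbp7* had 134 UMIs (69.5 CPM) and 124 UMIs (110 CPM), a log2 ratio of 0.66 (0.30 to 1.02). Of the type I genes, *Oasl2* had a log2 ratio of 1.29 (0.77 to 1.83), *Oas2* 0.94 (0.22 to 1.66) and *Ifit1* 1.22 (0.38 to 2.08), from 22 to 76 UMIs in a library.

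Endothelial-like nuclei of the 2 libraries sat largely in different clusters, which limits the vessel values. Cluster 4 held 784 *Wtap* flox/flox nuclei and 212 nuclei labelled *Wtap*-BKO, and cluster 5 held 363 and 566. The GTPase genes had 702 and 1355 CPM in cluster 4, a log2 ratio of 0.95 (0.78 to 1.11), and 1330 and 2117 CPM in cluster 5, a log2 ratio of 0.67 (0.49 to 0.85). Within both clusters the ratio was smaller than the 1.13 (1.02 to 1.24) of all endothelial-like nuclei. Without cluster 5, the log2 ratio of *Gbp4* in vessel nuclei was 0.12 (-0.26 to 0.48) and that of *Gbp7* was 0.12 (-0.40 to 0.61). Pericyte-like nuclei, all in 1 cluster, had a log2 ratio of 1.06 (0.81 to 1.30) for the GTPase genes, from 468 and 973 CPM.

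In fibroblast-like nuclei, 17 of the 37 members that passed the filter had a log2 ratio of at least 1, beside 11.7% of all genes, and none reached -1, beside 4.23% of all genes. The dendritic cell markers had 163 and 385 CPM in these nuclei, a log2 ratio of 1.24 (0.81 to 1.70), the T cell markers 1.15 (0.28 to 2.16) and the macrophage markers 0.26 (-0.01 to 0.54), and their part in the values was not tested. The lineage's own fibroblast markers had 7288 and 13444 CPM, a log2 ratio of 0.88 (0.82 to 0.95), beside 0.69 for all members. *Iigp1* had its highest level of all lineages here in both libraries, at 332 CPM (102 UMIs) and 657 CPM (673 UMIs), with a log2 ratio of 0.99 (0.68 to 1.30). *Gm4951* had 143 CPM and 277 CPM, a log2 ratio of 0.95 (0.49 to 1.45), and *Gbp6* had 52.1 CPM and 162 CPM, a log2 ratio of 1.64 (0.90 to 2.48). The *Wtap* flox/flox nuclei of this lineage were few, and the intervals of 25 of the 37 members included 0. *Oasl2* had 8 and 78 UMIs, giving a log2 ratio of 1.55 (0.50 to 2.81). *Oas2*, with 15 and 59 UMIs, had 0.24 (-0.60 to 1.16), and *Ifit2*, with 1 and 33 UMIs, had 3.31 (0.73 to 8.65).

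In immune nuclei, 19 of the 43 members that passed the filter had a log2 ratio of at least 1, beside 12.8% of all genes, and none reached -1, beside 5.59% of all genes. The mitochondrial share of UMIs was 5.05% and 8.71% in these nuclei. The type I genes had 250 CPM (117 UMIs) and 361 CPM (1037 UMIs), a log2 ratio of 0.53 (0.25 to 0.82), and the GTPase genes had 748 CPM (350 UMIs) and 1447 CPM (4156 UMIs), a log2 ratio of 0.95 (0.79 to 1.11). Immune nuclei were the lineage where the type I ratio was lowest, and its interval did not overlap that of adipocyte-like nuclei, 1.57 to 2.07. *Oas2* had 53 UMIs (113 CPM) and 299 UMIs (104 CPM), a log2 ratio of -0.12 (-0.55 to 0.33), which turned to 0.66 when only nuclei with at least 1000 UMIs were used. *Oasl2* had 24 UMIs (51.3 CPM) and 354 UMIs (123 CPM), a log2 ratio of 1.27 (0.67 to 1.93), and *Ifit2* had 8 and 110 UMIs, a log2 ratio of 1.16 (0.13 to 2.41). Marker lists also differed in the immune nuclei. The T cell markers had a log2 ratio of 1.07 (0.92 to 1.22) and the dendritic cell markers 0.74 (0.64 to 0.84). The B cell list had -0.86 (-0.99 to -0.73), but it cannot be read as B cells here. It was higher in adipocyte-like nuclei, at 1736 and 1302.5 CPM, than in immune nuclei, at 1276 and 703 CPM. B cell-like nuclei numbered 9 and 58. The fibroblast markers had 282 and 674 CPM in immune nuclei, a log2 ratio of 1.26 (1.003 to 1.52), and the part of this in the values was not tested.

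The GTPase genes of immune nuclei had unequal ratios. *Iigp1* had 103 CPM and 279 CPM, a log2 ratio of 1.44 (1.02 to 1.89), and *Gbp6* had 49.2 CPM and 134 CPM, a log2 ratio of 1.45 (0.84 to 2.13). *Gm4951* had 145 CPM and 181 CPM, a log2 ratio of 0.32 (-0.05 to 0.70), and *F830016B08Rik* had 57.7 CPM and 58.8 CPM, a log2 ratio of 0.03 (-0.56 to 0.67). For *Gm4951* and *F830016B08Rik*, these intervals lay below those in adipocyte-like nuclei, 2.47 to 2.95 and 1.76 to 2.16. With nuclei of at least 1000 UMIs, the immune value of *Gm4951* was 0.94.

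Within the named classes, 18 of 38 members that passed the filter had a log2 ratio of at least 1 in endothelial-like nuclei, beside 14.6% of all genes, and 9 of 25 in pericyte-like nuclei, beside 8.07%. The count was 19 of 42 in macrophage-like nuclei, beside 12.7%, and 22 of 36 in T cell-like nuclei, beside 17.4%. Macrophage-like nuclei had the highest type I level of these classes, at 344 CPM (282 to 415) and 476 CPM (445 to 509). In T cell-like nuclei the type I genes had only 8 *Wtap* flox/flox UMIs and 155 in the other library, a log2 ratio of 1.52 (0.50 to 2.75). The macrophage-like cluster also carried 9 of 10 dendritic cell markers. At a finer clustering resolution of 1.0 it gave macrophage-like nuclei (249 and 691), with a log2 ratio of the members of 0.41 (0.31 to 0.51), and dendritic cell-like nuclei (40 and 425), with 2667 and 6643 CPM and a log2 ratio of 1.32 (1.06 to 1.59). In the macrophage-like nuclei so split off, the type I genes had 370 and 382 CPM, a log2 ratio of 0.04 (-0.27 to 0.37), and in the dendritic cell-like nuclei 198 and 601 CPM, a log2 ratio of 1.60 (0.66 to 2.74). The share of dendritic cell-like nuclei within the class therefore moved with the member level of macrophage-like nuclei, and its part in the result was not tested.

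**Figure D2:**
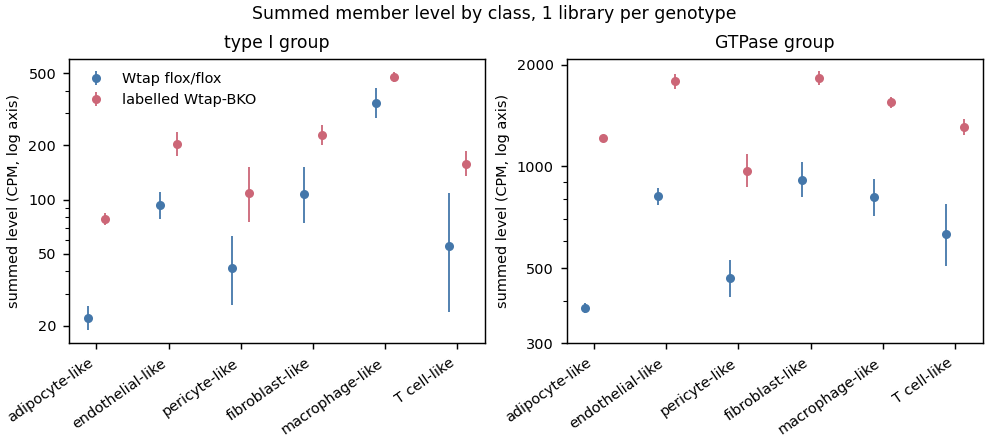
Summed level of the type I group (left) and the GTPase group (right) in CPM on a log axis, by class of nuclei, with 1 point per library and exact Poisson 95% intervals for counting error. The point of the library labelled Wtap-BKO lies above that of Wtap flox/flox in every class shown, and adipocyte-like nuclei have the lowest type I level of the classes shown in both libraries, 22.1 and 77.9 CPM.

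The balance of the 2 leading groups set the lineages apart more than it set the libraries apart. Type I genes made up 5.47% (4.69 to 6.33) and 6.02% (5.58 to 6.48) of the type I and GTPase UMIs of adipocyte-like nuclei in the *Wtap* flox/flox library and the library labelled *Wtap*-BKO. The share was 9.86% and 10.2% in vessel nuclei and 10.5% and 11.1% in fibroblast-like nuclei, with overlapping intervals between the libraries in each. It was highest in macrophage-like nuclei, at 29.8% (25.1 to 34.8) and 23.5% (22.2 to 24.9), whereas T cell-like nuclei had 8.08% and 10.8%. The 2 intervals of macrophage-like nuclei did not overlap. The UMI count of a gene depends on its transcript's 3′ end as well as on its level, so these shares compare lineages and not genes.

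Single members were spread unevenly over the lineages. In the library labelled *Wtap*-BKO, immune nuclei had the highest CPM of 28 members, and for 17 of these the Poisson interval lay above those of the other 3 lineages, among them *Oas2*, *Oasl2*, *Zbp1*, *Trim30a*, *Nlrc5*, *Tap1*, *Psmb8* and *Psmb9*. *Gbp6* and *Gbp10* were highest in adipocyte-like nuclei by the same criterion, *Gbp4* in vessel nuclei, and *Iigp1* and *Gm4951* in fibroblast-like nuclei. *Gbp10* had 227 UMIs (26.7 CPM) in adipocyte-like nuclei of this library and 21 UMIs (7.31 CPM) in immune nuclei. Without the small cluster described below, neither gene was clearly highest in adipocyte-like nuclei: *Gbp6* then had 143 CPM (135 to 151) there and 162 CPM (138 to 189) in fibroblast-like nuclei, and *Gbp10* had 16.8 CPM (14.1 to 19.9) and 11.7 CPM (6.05 to 20.5). In the *Wtap* flox/flox library, fewer UMIs were counted in fibroblast-like and immune nuclei. There *Gbp4* was clearly highest in vessel nuclei, *Stat2* and *Iigp1* in fibroblast-like nuclei and *Oas2*, *Trim30a*, *Nlrc5* and *Psmb9* in immune nuclei, while no member was clearly highest in adipocyte-like nuclei. *Gbp4*, *Iigp1*, *Oas2*, *Trim30a*, *Nlrc5* and *Psmb9* therefore kept their lineage of highest level in both libraries.

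**Figure D3:**
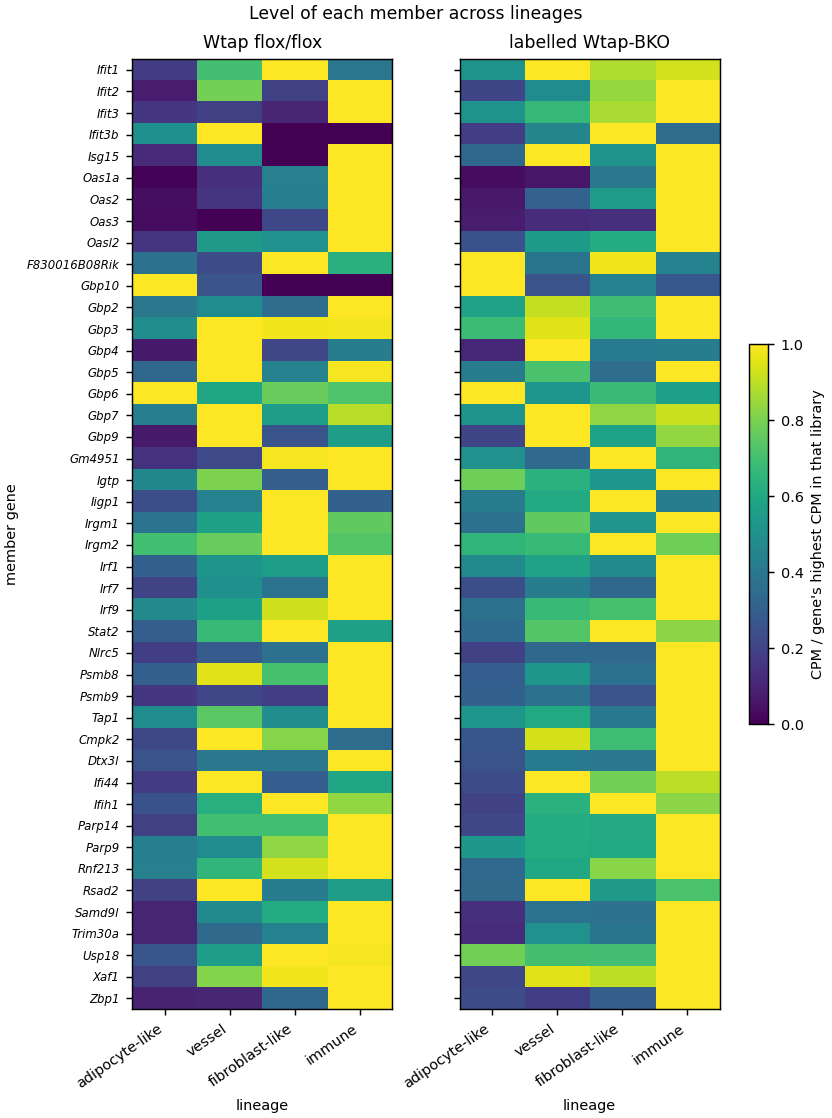
Level of each of the 44 members in the 4 lineages, as the CPM divided by the gene's highest CPM among the lineages of that library, for Wtap flox/flox (left) and the library labelled Wtap-BKO (right). Yellow marks the lineage of the highest level, which was immune for 25 and 28 members, respectively.

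To ask how many nuclei carried the members, each nucleus was thinned to 1000 UMIs, which removes differences in depth, and a nucleus with at least 2 member UMIs was called responding. Shallower nuclei were left out, 3461 and 1123 of the adipocyte-like nuclei. Among the rest, 624 of 3311 *Wtap* flox/flox nuclei of this lineage responded, 18.8% (17.5 to 20.2), and 1285 of 3886 of the library labelled *Wtap*-BKO, 33.1% (31.6 to 34.6). The ratio of the shares was 1.75. Without thinning, the shares were 21.9% and 50.03%, at median depths of 990 and 1471 UMIs.

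In vessel nuclei the thinned shares were 39.0% (35.2 to 42.9) of 641 nuclei and 62.9% (57.5 to 68.0) of 342 nuclei, with 949 and 647 nuclei left out, and the unthinned shares were 49.4% and 67.8%. Thinning left 454 and 140 nuclei of endothelial-like cluster 4, with shares of 41.4% (36.8 to 46.1) and 66.4% (58.0 to 74.2), but only 24 and 96 of cluster 5, with overlapping shares of 70.8% (48.9 to 87.4) and 75.0% (65.1 to 83.3). In immune nuclei they were 58.7% (51.2 to 65.9) of 184 and 84.2% (82.0 to 86.3) of 1142, with 235 and 780 left out, and unthinned 61.3% and 86.7%. Fibroblast-like nuclei had 55.1% (45.7 to 64.3) of 118 and 58.5% (53.4 to 63.4) of 390, with 156 and 100 left out, and unthinned 55.5% and 74.7%. At this limit of 2 UMIs, the thinned intervals thus overlapped in fibroblast-like nuclei and in no other lineage. At a limit of 5 UMIs, the fibroblast-like shares were 11.9% (6.64 to 19.1) and 25.9% (21.6 to 30.5), which did not overlap. Free RNA in the droplets also gives UMIs, and no class is known to lack these genes. The lowest share was found in the unnamed nuclei, which were rich in mitochondrial RNA, at 9.52% (4.66 to 16.8) and 19.9% (13.9 to 27.0), with median depths of 726 and 965 UMIs. The part of free RNA in the shares was not tested.

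High counts were also more frequent in the library labelled *Wtap*-BKO. At least 10 member UMIs after thinning were found in 31 *Wtap* flox/flox nuclei of the adipocyte lineage, 0.936% (0.637 to 1.33), and in 222 of the other, 5.71% (5.004 to 6.49). In vessel nuclei the shares were 0.780% (0.254 to 1.81, 5 nuclei) and 8.77% (6.00 to 12.3, 30 nuclei), and in immune nuclei 3.80% (1.54 to 7.68, 7 nuclei) and 15.2% (13.2 to 17.5, 174 nuclei). In fibroblast-like nuclei, 2.54% (0.527 to 7.25, 3 nuclei) and 10.0% (7.21 to 13.4, 39 nuclei) had overlapping intervals. The variance of member UMIs over their mean was 4.54 and 10.8 in adipocyte-like nuclei, 2.33 and 4.20 in vessel nuclei, 3.67 and 7.69 in fibroblast-like nuclei and 2.71 and 4.98 in immune nuclei. The 5% of adipocyte-like nuclei with the most member UMIs held 35.7% and 46.1% of those UMIs, against 19.1% and 20.01% in immune nuclei. Of the 4 lineages, adipocyte-like nuclei thus had the smallest share of responding nuclei and the most uneven counts.

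**Figure D4:**
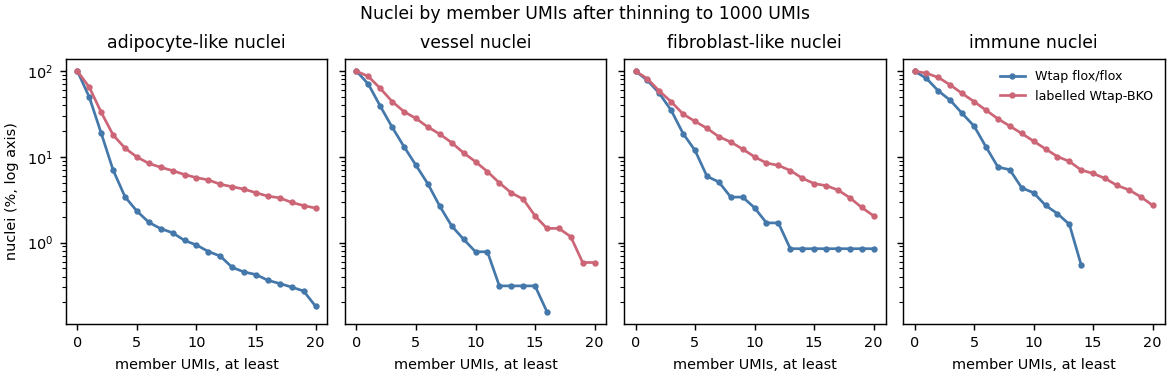
Share of nuclei (percent, log axis) with at least a given number of member UMIs after thinning to 1000 UMIs, by lineage, for both libraries. In adipocyte-like nuclei of the library labelled Wtap-BKO the line flattens after a steep start, from 33.1% at 2 UMIs to 5.71% at 10 UMIs, whereas in immune nuclei it falls more evenly.

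Type I UMIs were most frequent in the adipocyte-like nuclei with 5 or more GTPase UMIs. Of the nuclei with a type I UMI, 35 and 71 had no GTPase UMI. In the library labelled *Wtap*-BKO, a type I UMI was present in 2.69% (2.11 to 3.38) of the nuclei with no GTPase UMI, in 2.44% (1.43 to 3.88) of those with 1, in 12.1% (8.58 to 16.4) of those with 2 to 4, and in 30.4% (24.9 to 36.4) of those with 5 or more. In the *Wtap* flox/flox library the shares were 1.31% (0.914 to 1.82), 2.59% (1.35 to 4.48), 5.38% (2.19 to 10.8) and 17.4% (7.82 to 31.4). Among immune nuclei, a type I UMI was present in 10.6% and 18.7% of those with no GTPase UMI, and 48.9% (38.5 to 59.5) of the 94 nuclei labelled *Wtap*-BKO with 5 or more GTPase UMIs had one. Nuclei are not replicates, and these shares describe 2 libraries.

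A small adipocyte-like cluster held much of the signal. Cluster 11 had 27 nuclei of the *Wtap* flox/flox library, 0.399% of its adipocyte-like nuclei, and 158 of the library labelled *Wtap*-BKO, 3.15%. *Gbp10*, *Gbp6*, *Gm4951*, *F830016B08Rik*, *Gbp5* and *Gbp2* were among its 10 leading genes, although the members had been left out of the genes used for clustering, and 8 of 12 adipocyte markers were high in it. The members had 15953 and 20771 CPM in this cluster, and the GTPase genes 9847 and 13871 CPM. These levels differed less between the libraries, by log2 ratios of 0.38 (0.25 to 0.51) and 0.49 (0.33 to 0.66), than those of all adipocyte-like nuclei. The cluster held 7.35% of the member UMIs of adipocyte-like nuclei in the *Wtap* flox/flox library and 31.4% in the other. Its definition rests on genes that move with the members, so its size is given as a description, and the number of clusters changed with the numerical library used for the computation, so all values by cluster hold for 1 clustering.

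Without cluster 11, adipocyte-like nuclei had 339 and 756 CPM of the GTPase genes, a log2 ratio of 1.16 (1.09 to 1.22), and 18.7 and 47.8 CPM of the type I genes, a log2 ratio of 1.35 (1.07 to 1.64). The log2 ratio of all members was then 0.87 (0.83 to 0.91), which lay within the interval of vessel nuclei. Among the members that passed the filter, the intervals of *Stat2*, *Oas2*, *Gbp3*, *Irgm1*, *Ifi44*, *Ifih1*, *Cmpk2* and *Rnf213* then included 0. In the other 4 adipocyte-like clusters taken singly, the GTPase genes had log2 ratios of 0.80, 1.15, 1.13 and 1.37. The responding share of clusters 0, 1 and 2 was 16.5%, 18.9% and 17.5% in the *Wtap* flox/flox library and 30.7%, 28.1% and 28.1% in the other. Both a small group of nuclei with many member UMIs and the bulk of adipocyte-like nuclei therefore differed between the libraries.

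**Figure D5:**
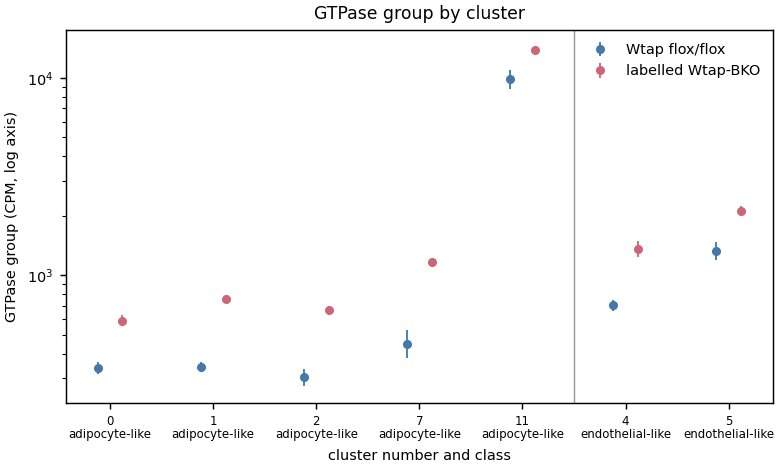
Level of the GTPase group (CPM, log axis) in the 5 adipocyte-like and 2 endothelial-like clusters, 1 point per library with exact Poisson 95% intervals. Cluster 11 stands at 9847 and 13871 CPM, above every other cluster, and the library labelled Wtap-BKO is higher within each of the 7 clusters.

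Markers of other cell types were examined beside these values, because immune nuclei were more frequent in the library labelled *Wtap*-BKO. In adipocyte-like nuclei, the 12 macrophage markers summed to 140 and 292 CPM and the 13 T cell markers to 18.7 and 68.1 CPM, so both lists were higher in the library labelled *Wtap*-BKO, by log2 ratios of 1.07 and 1.87, and no marker of either list was at 0. The 10 dendritic cell markers had 105 and 253 CPM, with 1 of them at 0 in the *Wtap* flox/flox library, and the 11 fibroblast markers 221 and 653 CPM. The 10 endothelial markers and the 8 B cell markers were lower in the library labelled *Wtap*-BKO, by log2 ratios of -0.43 (-0.56 to -0.30) and -0.41 (-0.45 to -0.38). The B cell list cannot be read as B cells, since it had 1736 CPM in adipocyte-like and 1276 CPM in immune *Wtap* flox/flox nuclei. The 12 adipocyte markers were higher in the library labelled *Wtap*-BKO, at 10520 and 15477.5 CPM, a log2 ratio of 0.56 (0.54 to 0.57). Together, the 25 macrophage and T cell markers had 158 and 361 CPM. For every 100 UMIs of these markers, adipocyte-like nuclei had 613 and 643 member UMIs, so the members and the markers differed between the libraries by nearly the same factor. The values were 780 and 582 in vessel nuclei, 495 and 625 in fibroblast-like nuclei and 73.5 and 92.8 in immune nuclei. For the GTPase genes alone the values were 241 and 337 in adipocyte-like nuclei, 290 and 252 in vessel nuclei, 187 and 292 in fibroblast-like nuclei and 18.7 and 26.5 in immune nuclei. The part of immune RNA in the difference between the libraries was not tested.

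The adipocyte-like nuclei with at least 10 member UMIs, a limit set after the data were seen, had an adipocyte marker level like that of nuclei with few member UMIs in *Wtap* flox/flox and a lower one in the other library. The 12 adipocyte markers summed to 10189 CPM (9305 to 11135) in the 31 *Wtap* flox/flox nuclei and to 10485 CPM (10386 to 10585) in those with 0 or 1 member UMIs. In the library labelled *Wtap*-BKO the values were 13150 CPM (12818 to 13488) in the 222 nuclei and 15581 CPM (15472 to 15690). The macrophage markers had 83.5 CPM (22.8 to 214) in the 31 nuclei and 130 CPM (120 to 142) in those with 0 or 1 of the same library, and 286 CPM (239 to 340) in these 222 nuclei and 262 CPM (248 to 276) in those with 0 or 1. The dendritic cell markers had 62.6 CPM (12.9 to 183) in the 31 nuclei and 100.3 CPM (90.8 to 110) in those with 0 or 1, and 293 CPM (245 to 347) in the 222 nuclei and 217 CPM (205 to 231) in those with 0 or 1, so this list was higher in the 222 nuclei. The MHC class II pathway genes on this list may themselves respond to interferon, and their part in the sum was not tested. The T cell markers had 0 UMIs in the 31 *Wtap* flox/flox nuclei, with an upper limit of 77.0 CPM that holds the 16.8 CPM of nuclei with 0 or 1, so no difference was detectable there. They had 94.7 CPM (68.6 to 128) in the 222 nuclei and 55.0 CPM (48.7 to 61.9) in those with 0 or 1. *Wtap* in the 222 nuclei was 52.9 CPM (33.9 to 78.7), close to the 48.9 CPM of nuclei with 0 or 1.

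The rest of the interferon pathway was read from lists of ligands, receptors, kinases and factors, sensors, brakes and further induced genes. Interferon ligands were hardly counted. *Ifng*, the interferon-γ gene, had 4 *Wtap* flox/flox UMIs and 38 in the other library, of which 3 and 31 were in immune nuclei, or 6.41 and 10.8 CPM of these nuclei, a log2 ratio of 0.75 (-0.93 to 3.11). *Ifnk* had 0 and 1 UMIs, and *Ifnb1*, *Ifna2*, *Ifna4*, *Ifnl2*, *Ifnl3* and *Ifne* had 0 UMIs in both libraries. The upper limits at this depth were 0.342 and 0.265 CPM over all nuclei, so lower ligand levels were not detectable.

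Receptor subunits moved in different directions in adipocyte-like nuclei. *Ifngr1*, the ligand-binding chain of the interferon-γ receptor, was lower in the library labelled *Wtap*-BKO, with 1670 UMIs (218 CPM) and 1147 UMIs (135 CPM) and a log2 ratio of -0.69 (-0.80 to -0.58), while its partner *Ifngr2* had 49 and 110 UMIs, a log2 ratio of 1.02 (0.52 to 1.53). *Ifnar1* of the type I receptor had 40.7 and 41.2 CPM, a log2 ratio of 0.02 (-0.21 to 0.24), and *Ifnar2* had 103 and 149 CPM, a log2 ratio of 0.54 (0.41 to 0.67). *Il10rb*, shared by the interferon-λ and interleukin 10 receptors, had a log2 ratio of 1.86 (1.57 to 2.16), and *Ifnlr1* had 4 and 17 UMIs. In fibroblast-like nuclei, *Ifngr1* was also lower, with a log2 ratio of -0.63 (-1.02 to -0.23), whereas the intervals of vessel and immune nuclei, at 0.18 and 0.27, included 0.

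Of the genes that passed the filter in adipocyte-like nuclei, 3 of 6 receptor subunits, 2 of 9 kinases and factors, 2 of 8 sensors and adaptors and 3 of 4 brakes had a log2 ratio of at least 1, beside 15.0% of all genes, and 1 sensor had -1 or lower, beside 3.82%. With so few genes a list, the counts of kinases and of sensors lay near the share of all genes. Among all these pathway genes, ligands and receptors aside, the 5 largest log2 ratios in adipocyte-like nuclei were those of *Socs1* at 3.70 (2.61 to 5.05), *Tmem173* (STING) at 3.49 (1.49 to 6.62), *Irf8* at 2.80 (2.18 to 3.48), the GTPase gene *Tgtp2* at 2.53 (1.16 to 4.25) and the phosphatase gene *Ptpn6* at 2.51 (1.65 to 3.48). *Socs1*, an inhibitor of JAK kinases, had 7 and 101 UMIs. *Irf8*, *Ptpn6* and *Tmem173* are also expressed by blood-derived immune cells, and their part from such cells was not tested. The lowest log2 ratios were those of *Tlr3* at -1.01 (-1.99 to -0.08), *Ifi27* at -0.67 (-0.74 to -0.59) and *Irf3* at -0.53 (-0.71 to -0.34).

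Of the 28 further induced genes that were found, 26 passed the filter in adipocyte-like nuclei, and 14 of these had a log2 ratio of at least 1, beside 15.0% of all genes, with a median of 1.08. The corresponding counts were 8 of 24 in vessel nuclei, beside 12.5% of all genes, 5 of 23 in fibroblast-like nuclei, beside 11.7%, and 7 of 26 in immune nuclei, beside 12.8%. The medians were 0.73, 0.37 and 0.60, where those of all genes were 0.31, 0.09 and 0.12. A log2 ratio of -1 or lower was found for 2 of these genes in fibroblast-like nuclei, beside 4.23% of all genes, for 1 in immune nuclei, beside 5.59%, and for 0 in the other lineages. Adipocyte-like nuclei had the largest median in this list, as they did for the members.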

How the data were processed

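Nuclei of frozen iBAT were sequenced with 10x 3′ chemistry. The authors deposited raw UMI counts per gene and nucleus, made with Cell Ranger 5.0.0 per the file headers. The processing notes name Trimmomatic, FastQC, Cell Ranger, Seurat and mm10. The lowest total was 500 UMIs per nucleus, and no nucleus was removed here.

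Libraries were integrated and clustered with Seurat 5.3.0 in R 4.3.3 (2000 variable features, of which 18 were members and were left out, 20 PCs, resolution 0.5). To be named for a class, a cluster had to show 3 of its markers, each with a minimum of 10 UMIs, at 2 times the CPM of other nuclei after adding 1 CPM. An adipocyte-like cluster needed 50% of 12 adipocyte markers at 1.5 times the CPM of the named clusters. These thresholds were set after the data were seen. Members and lists were chosen with earlier results of these data known. Full values are given for the 5 members of each group with the most UMIs in adipocyte-like nuclei and the 3 type I and GTPase members with the most in other lineages. Of other pathway genes, ligands, receptors, the 5 highest and the 3 lowest are named. Any other gene given with its own values was picked after they were seen.

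Intervals are exact: Poisson for CPM, Clopper-Pearson for shares, conditional for log2 ratios. Genes needed 20 UMIs over both libraries for counts, and a library at 0 was set to 3 UMIs. Scrublet in scanpy 1.11.5 called 3 and 0 doublets and so had not worked, and removing 721 and 616 nuclei with the highest scores was an alternative. Scripts were tested on simulated data. With 1 library per genotype, n was 1 and no test was made. One gene of the pathway is not reported here.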

Additional observations from a re-analysis of the deposited data

Results flagged for a closer look

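A signal also appeared in nuclei that no comparison of lineages used. The unnamed nuclei, 417 and 347 in the 2 libraries, held the members at 560 CPM (208 UMIs) in *Wtap* flox/flox. In the library labelled *Wtap*-BKO they were at 1163 CPM (468 UMIs), and the log2 ratio was 1.06 (0.82 to 1.30). Mitochondrially encoded genes took 37.1% and 45.9% of the UMIs of these nuclei. The GTPase genes had a log2 ratio of 1.41 (1.03 to 1.81) there. The 22 and 15 Schwann-like nuclei had 44 and 35 member UMIs, and their interval of -0.27 to 1.09 included 0.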

How the results depend on the processing

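All log2 ratios of the summed GTPase and type I genes stayed above 0 in every lineage under every alternative run. This concerns the values and not their intervals. No paired analysis was possible because each genotype had 1 library. The GTPase log2 ratio in adipocyte-like nuclei, 1.67, was 1.95 with nuclei of at most 5% mitochondrial UMIs, 1.79 with mitochondrial UMIs out of the total, 1.58 with median-of-ratios scaling, 1.53 without *Gm4951* and *F830016B08Rik*, and 1.16 without cluster 11, where the type I value was 1.35. These cluster-based alternatives were chosen after seeing the data. In vessel nuclei the GTPase value, 1.11, was 1.40 with at most 5% mitochondrial UMIs, 1.01 without *Iigp1*, 0.90 without cluster 5 and 0.81 with median-of-ratios scaling, which lowered the count of members at a log2 ratio of at least 1 from 16 to 9. On the CPM scale, the median log2 ratio of all genes was 0.31 in vessel and 0.12 in immune nuclei. In fibroblast-like nuclei the GTPase value, 0.9994, was 1.33 with at least 1000 UMIs per nucleus and 1.23 with at most 5% mitochondrial UMIs. In immune nuclei it was 1.15 without *Gm4951* and *F830016B08Rik*. The type I value there, 0.53, was 0.86 with at least 1000 UMIs and 0.26, its lowest, without *Oasl2*. The ratio of responding shares in adipocyte-like nuclei was 1.98 with at most 5% mitochondrial UMIs, 2.42 thinned to 500 UMIs, 2.29 not thinned, and 2.57 and 4.27 at limits of 3 and 5 UMIs. In vessel nuclei it was 1.37 not thinned, 1.99 and 3.53 at these limits. In fibroblast-like nuclei, where the main value of 1.06 had an interval that included 1, it was 1.29 thinned to 500 UMIs, 1.35 not thinned, 2.18 at 5 UMIs and 0.998 without the highest doublet scores. In immune nuclei it was 1.93 at 5 UMIs. The cause of these shifts was not tested. Of 160 values for groups, counts and shares under alternatives, 27 moved. A ratio was called moved beyond the counting error of its main value, and a count of members beyond a set factor. Of 363 values of single members given in full, 25 moved beyond the counting error and 1 changed sign after a call, *Rnf213* at -0.089 without cluster 11. Outside these members, *Irgm1* and *Cmpk2* in adipocyte-like nuclei also turned below 0 without cluster 11, at -0.027 and -0.034.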
